A study of Mus musculus with 18 samples.

Results

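The rows examined here belong to the microRNA genes of the miR-23a cluster (Mir23a, Mir27a and Mir24-2, chromosome 8) and of its paralog, the miR-23b cluster on chromosome 13 (Mir24-1, Mir27b and Mir23b), together with 2010111I01Rik, the protein-coding gene that holds the miR-23b cluster. They were taken by symbol, 7 of the 23953 rows of the deposited table, and 4 of them passed the filter on low values (at least 1 RPKM in at least 3 libraries), namely the 3 hairpin rows of chromosome 8 and the host gene. RPKM is reads per kilobase of transcript and per megaread mapped.

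The RNA was that of regulatory T (Treg) cells of C57BL/6 mice, sorted by flow cytometry on CD4 and high CD25. Each of 6 genotypes had 3 libraries. The miR-23 Tg, miR-24 Tg and miR-27 Tg cells overexpressed 1 member of the family in T cells, and the cluster Tg cells overexpressed the whole miR-23 cluster. DKO cells (labelled "DKO Tg") lacked both clusters through a T cell-specific deletion, and WT cells (labelled "WT Tg") were the control. The series title names CD4cre, a recombinase that acts in T cells from the thymus onwards, and the labels give neither the transgenes' site nor the animals' age. Whether each library was a separate animal is not stated either, and the p-values measure the spread between these samples, which may be technical.

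A microRNA is cut from a hairpin in a longer primary transcript, first by Drosha with Dgcr8 in the nucleus and then by Dicer in the cytoplasm. Its seed, bases 2 to 8 of the mature strand, directs it to messenger RNAs, whose level or translation it lowers. The miR-23a and miR-23b clusters are paralogs that each carry a miR-23, a miR-27 and a miR-24 hairpin, and in T cells they are known for limiting effector differentiation and tuning Treg function. 2010111I01Rik is the older symbol of Aopep, which encodes aminopeptidase O.

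The mature strands that define the family are printed with their seeds in capitals, since the seed separates the 3 members and is shared by the miR-27 paralogs. They were taken from RefSeq (GRCm38.p6).
mmu-miR-23a-3p: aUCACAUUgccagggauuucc
mmu-miR-27a-3p: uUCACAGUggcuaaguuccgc
mmu-miR-27b-3p: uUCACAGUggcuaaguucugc
mmu-miR-24-3p: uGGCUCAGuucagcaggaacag
The seed of miR-27a-3p was also that of miR-27b-3p. These strands differed by C19U, counted from 1 at the 5′ end, with the base of miR-27a-3p first. The mature miR-24-3p was the same sequence from Mir24-2 and from Mir24-1. Of the mature strands of the 6 hairpins, 10 names were matched. The strand miR-23b-3p was not among them, so miR-23a-3p was not compared with it.

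The libraries held RNA from which small RNAs had not been removed, but they were made with an RNA kit for long transcripts. The rows therefore report fragments of longer RNA that were assigned to a hairpin, not the mature strands. The 3 hairpins of the miR-23a cluster are printed because their lengths set the value of a read, with the 3p mature strand in capitals. All lie on the plus strand of GRCm38, Mir23a at chr8:84208518-84208592, Mir27a at chr8:84208672-84208758 and Mir24-2 at chr8:84208815-84208921.
Mir23a: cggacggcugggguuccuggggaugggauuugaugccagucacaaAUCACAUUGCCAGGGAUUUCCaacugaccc
Mir27a: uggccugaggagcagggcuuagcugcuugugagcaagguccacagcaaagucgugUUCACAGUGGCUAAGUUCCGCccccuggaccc
Mir24-2: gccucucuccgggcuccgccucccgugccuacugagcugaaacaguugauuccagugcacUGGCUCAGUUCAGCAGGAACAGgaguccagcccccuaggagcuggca

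The RPKM values of these short rows stepped in whole multiples of 1 read, so the reads behind each value could be recovered. In WT library 1, 1 read was worth 61.8 RPKM on Mir23a (75 nt), 28.9 RPKM on Mir27a (87 nt) and 11.4 RPKM on Mir24-2 (107 nt). The steep fall with length followed an effective length, the number of places a fragment can start weighted by fragment length, computed for fragments of mean 200 and SD 80 bases and no shorter than 46. That setting was the best of 5712 tried on WT library 1, with a median relative deviation of 1.42e-06 over 18 hairpin lengths, against 0.00657 for the next different setting. With it, 84.9% to 90.3% of the hairpin values under 30 reads in a library came out whole within 0.005 of a read, over 106 to 153 values per library. The mapped total behind the values was 22.7 to 34.8 megareads per library.

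**Figure D1:**
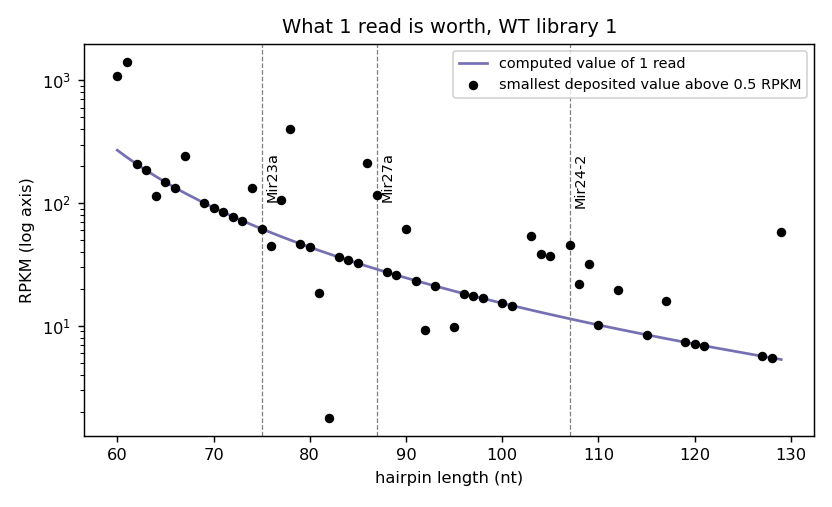
Value of 1 read (line, RPKM on a log axis) against hairpin length in nucleotides for WT library 1, with the smallest deposited value above 0.5 RPKM at each length (points) and the lengths of Mir23a, Mir27a and Mir24-2 (dashed). Many points lie on the line, and 1 read falls from 61.8 RPKM at 75 nt to 11.4 RPKM at 107 nt; points off the line are rows whose smallest value was several reads or a fraction of one.

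All 10 Treg markers were detected in each library, and Foxp3, the lineage factor, ran from 196.6 to 347.6 RPKM. Markers of B cells (7 genes), summed, were higher in each transgenic library than in each WT library, with WT at 19.3 to 24.6 RPKM, miR-23 Tg at 35.8 to 43.7, miR-24 Tg at 39.2 to 88.7, miR-27 Tg at 36.8 to 102.7 and cluster Tg at 29.4 to 44.0. DKO lay at 19.3 to 22.6 RPKM. The sums of 8 myeloid markers were likewise above those of WT (15.1 to 19.0 RPKM) in each transgenic library, the lowest at 20.4. Against WT, limma called 6 of 7 tested B cell markers higher in miR-24 Tg and 7 of 7 in miR-27 Tg, and 2 and 3 of 7 tested myeloid markers, where 4.6% and 15.9% of all genes passed as higher. It called none of either list in miR-23 Tg or cluster Tg, where 0.156% and 13.8% of all genes passed as higher. With so few calls over all genes, the lack of calls under the miR-23 transgene cannot show that these markers stayed level. Their median log2 difference from WT was 1.64 (B cell) and 1.30 (myeloid) with that transgene. It was 1.52 and 1.82 for the miR-24 transgene, 2.01 and 2.08 for miR-27, and 0.59 and 0.43 for the cluster. The highest libraries for both lists were miR-24 Tg library 1 (88.7 and 169.8 RPKM) and miR-27 Tg library 3 (102.7 and 86.6 RPKM). In bulk RNA, fewer cells of a type and less RNA per cell cannot be told apart. The part of these cells in the results was not tested. Leaving out either library changed no call on the hairpin rows in the comparison of transgenic with intact groups. This could not decide it, because the libraries of these groups did not overlap. In that of DKO with intact groups, leaving out miR-24 Tg library 1 changed Mir23a from not called to called.

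Each transgene raised the row of its own hairpin, and the cluster transgene raised all 3. Mir23a had 437, 406 and 578 reads in miR-23 Tg libraries 1 to 3, and the cluster Tg libraries had 356, 199 and 152. WT had 1, 2 and 0 reads, miR-24 Tg 0, 11 and 1, and miR-27 Tg 4, 4 and 1. The 6 libraries with a transgene for Mir23a (11691 to 38276 RPKM) did not overlap the 9 with intact endogenous clusters and no such transgene (0 to 830.6 RPKM). The difference was 9.01 on the log2(RPKM + 0.5) scale, and the exact two-sided permutation test gave p = 0.0001998, the smallest of its 5005 assignments (0.0004662 after Benjamini-Hochberg adjustment over 7 tests). Per mapped read, Mir23a was 135-fold higher, from 2128 against 24 reads. Of the 24 reads, 11 came from miR-24 Tg library 2, without which the ratio was 223.5.

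Mir27a reached the highest level of the 3 hairpins in its own transgenic group. The miR-27 Tg libraries had 2613, 2770 and 1213 reads and the cluster Tg libraries 800, 455 and 381. WT had 12, 4 and 0 reads, miR-23 Tg 4, 3 and 7, and miR-24 Tg 7, 19 and 1. The transgenic libraries (13710 to 79108 RPKM) did not overlap the intact ones (0 to 671.2 RPKM). The difference was 8.53 on the log2 scale (exact permutation p = 0.0001998, adjusted 0.0004662), or 214-fold per mapped read.

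For Mir24-2 the miR-24 Tg libraries had 464, 1597 and 680 reads and the cluster Tg libraries 667, 403 and 425. Its row shares its place with Mir3074-2, a hairpin annotated on the other strand, and in libraries with few reads the 2 rows split reads into fractions. The sum of both rows was whole in each library: WT had 6, 0 and 2 reads, miR-23 Tg 4, 2 and 6, and miR-27 Tg 0, 1 and 3. The row alone differed by 10.15 on the log2 scale between the 6 transgenic and the 9 intact libraries (exact permutation p = 0.0001998, adjusted 0.0004662), without overlap. Per mapped read the ratio was 454, resting on 16 reads in the intact libraries. It leaves out the intact libraries' reads that were split to Mir3074-2, so it is too high for the place as a whole. As reads plus 1, the log2 difference was 8.23 for the row alone and 7.88 for both rows together.

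**Figure D2:**
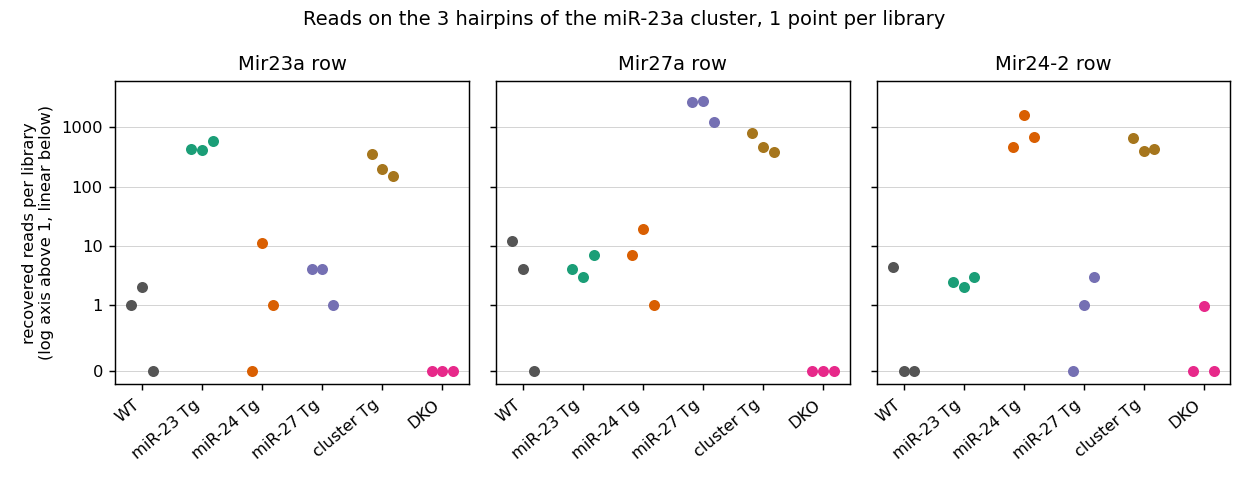
Recovered reads per library on the Mir23a, Mir27a and Mir24-2 rows, 1 point per library in 6 genotypes, on an axis that is linear below 1 read and logarithmic above. Libraries with a transgene for the row lie at 152 reads or more, the other transgenic and WT libraries at 19 or fewer, and DKO libraries at 0 apart from 1 Mir24-2 read.

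The limma model over all 11520 tested genes called the same 6 rises against WT. Mir23a rose by 10.95 ± 2.18 (log2 ± SE) in miR-23 Tg at a limma Benjamini-Hochberg adjusted p of 0.0493, where 0.156% of all genes passed as higher. In cluster Tg, where 13.8% of genes passed as higher, it rose by 9.94 (adjusted p = 0.00487). Mir27a rose by 11.16 in miR-27 Tg (adjusted p = 0.000411, with 15.9% of genes higher) and by 9.28 in cluster Tg (adjusted p = 0.00167). Mir24-2 rose by 12.35 in miR-24 Tg (adjusted p = 0.00102, with 4.6% of genes higher) and by 11.50 in cluster Tg (adjusted p = 0.000571). The pseudocount of 0.5 RPKM is far below 1 read on these rows. With the reads plus 1, an alternative chosen after the values were seen, the rises were 8.02 and 7.01 for Mir23a, 9.002 and 7.12 for Mir27a, and 9.10 and 8.25 for Mir24-2, in the same order of groups. On the RPKM scale the Mir23a call in miR-23 Tg was lost when any 1 of the 6 libraries was left out (adjusted p 0.0730 to 0.236). With the reads plus 1 its adjusted p was 9.52e-05.

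No single-member transgene raised the other hairpins past the test. In miR-23 Tg, Mir27a and Mir24-2 differed from WT by 2.32 and 3.81 on the log2 scale (limma adjusted p = 0.589 and 0.369). In miR-24 Tg, Mir23a and Mir27a differed by 0.93 and 2.76 (adjusted p = 0.847 and 0.354). In miR-27 Tg, Mir23a and Mir24-2 differed by 3.38 and 1.51 (adjusted p = 0.272 and 0.568). These values rest on 0 to 19 reads a library, so only large changes were detectable. The highest of them, 11 Mir23a reads and 19 Mir27a reads, came from miR-24 Tg library 2, which also held the most Mir24-2 reads (1597).

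The hairpin rows of the miR-23b cluster gained no read with the transgenes. In all libraries of the 4 transgenic groups the Mir23b, Mir27b and Mir24-1 rows stayed at 0.00770627 RPKM or less, where 1 read would be worth 77.2, 83.4 and 127.7 RPKM on average in miR-23 Tg. The longest run of bases shared between paralogous hairpins was 20 for Mir23a and Mir23b, 20 for Mir27a and Mir27b, and 28 for Mir24-2 and Mir24-1. All are shorter than the shortest fragment of the fit, 46 bases.

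Against the single-member groups, cluster Tg was higher for hairpins those transgenes lack. Mir27a and Mir24-2 rose by 6.95 and 7.69 on the log2 scale over miR-23 Tg (limma adjusted p = 0.0126 and 0.00921), where 10.9% of genes passed as higher. Mir23a and Mir27a rose by 9.01 and 6.52 over miR-24 Tg (adjusted p = 0.0180 and 0.0265, with 6.45% of genes higher). Mir24-2 rose by 9.99 over miR-27 Tg (adjusted p = 0.00619, with 3.5% of genes higher), and Mir23a differed there by 6.56 (0.0841). The 3 calls over miR-24 Tg and miR-27 Tg were lost in fits of the 2 compared groups alone (adjusted p 0.0659 to 0.133). Over miR-24 Tg, the Mir23a call was also lost without cluster Tg library 1 or miR-24 Tg library 1 (0.0727 and 0.0581), and the Mir27a call with a pseudocount of 0.1 (0.0576) or without cluster Tg library 1 or 2 or miR-24 Tg library 1 or 3 (0.0598 to 0.0953). Mir23a over miR-27 Tg was called in the fit of those 2 groups alone.

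For the hairpin a single-member transgene does carry, its group had more reads than cluster Tg. As reads per megaread mapped, Mir23a stood at 15.9 ± 1.91 in miR-23 Tg against 8.14 ± 2.65 for cluster Tg (SD, n = 3 each), a ratio of 1.95. Mir27a stood at 69.3 ± 16.4 in miR-27 Tg against 18.9 ± 5.24, a ratio of 3.68. Mir24-2 stood at 34.4 ± 19.7 in miR-24 Tg against 17.4 ± 2.56, a ratio of 1.98. The libraries of each pair of groups did not overlap, and the exact two-sided permutation p was 0.1 for each, unadjusted and the smallest that 3 against 3 allows. In the limma model the differences were -1.01, -1.89 and -0.85 on the log2 scale (adjusted p = 0.792, 0.543 and 0.776), and among all genes 7.89%, 3.35% and 5.1% passed as lower in cluster Tg. Spread within a group was largest for Mir24-2 in miR-24 Tg, whose highest library was 2.79 times its lowest.

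Within the cluster Tg libraries the balance of the 3 hairpins depended on the correction for length. Of the reads on the 3 rows (1823, 1057 and 958 in libraries 1 to 3), Mir23a took 19.5%, 18.8% and 15.9%, Mir27a 43.9%, 43.0% and 39.8%, and Mir24-2 36.6%, 38.1% and 44.4%. Mir23a was thus the smallest share in each library. Per possible start position of a 46-base fragment, Mir27a was highest in each library (19.0, 10.8 and 9.07 reads). On that scale Mir23a (11.9, 6.63 and 5.07) was slightly above Mir24-2 (10.8, 6.50 and 6.85) in the first 2 libraries and below it in the third. In RPKM, Mir23a was 2.88, 2.67 and 1.93 times Mir24-2, and Mir27a 3.03, 2.85 and 2.27 times. The order Mir27a above Mir24-2 held on each scale in libraries 1 and 2, whereas the place of Mir23a changed with the scale.

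**Figure D3:**
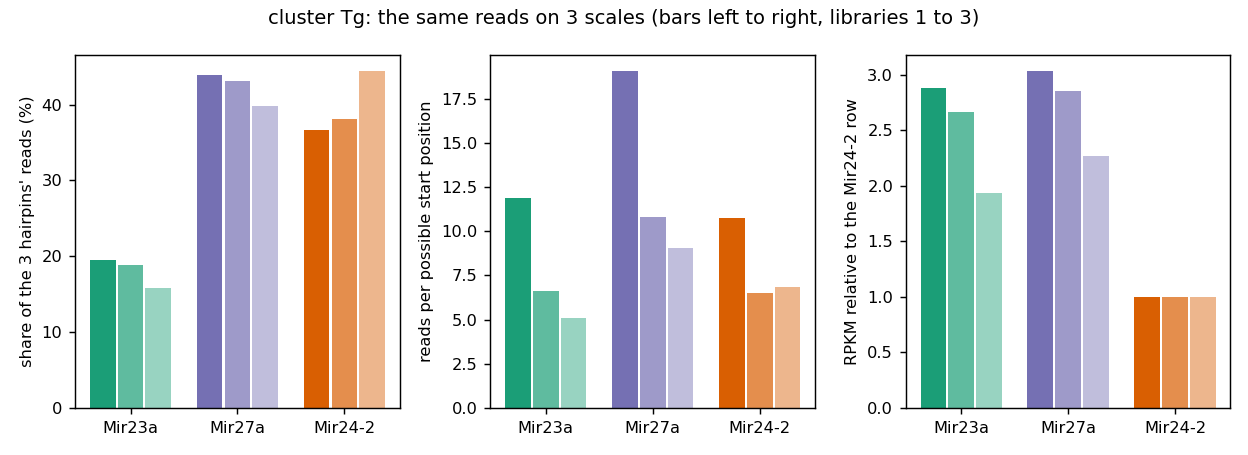
The 3 cluster Tg libraries (bars, left to right) on 3 scales: share of the reads on the 3 hairpins in percent, reads per possible start position, and RPKM relative to the Mir24-2 row. Mir23a has the smallest share of reads, 15.9% to 19.5%, but 1.93 to 2.88 times the RPKM of Mir24-2.

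DKO libraries, in which both clusters are deleted, held no read on Mir23a or Mir27a. Mir27a had 0 reads in 94.0 megareads in DKO against 57 in 262.4 megareads in the 9 intact libraries, 8 of which held at least 1 read. At the intact rate 20.4 reads would have been seen in DKO. With a floor of 3 reads over the DKO group, the bound on the fall of Mir27a was 6.81-fold. It takes the 57 intact reads as exact, though their 95% counting range was 43.2 to 73.9. The exact two-sided permutation test gave p = 0.0182 (adjusted 0.0255 over 7 tests, difference -7.57 on the log2 scale). Leaving out any 1 DKO library raised the adjusted p to 0.0764 and lowered the bound to between 4.34-fold and 4.65-fold. With the reads plus 1 it was 0.0341.

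Mir23a had 0 reads in DKO against 24 in the 265.8 megareads of the intact libraries, and WT held 3 of the 24. At the intact rate 8.49 would have been seen in DKO. The bound from a floor of 3 reads in DKO was 2.83-fold. It takes the 24 intact reads as exact, though their 95% counting range was 15.4 to 35.7. Without miR-24 Tg library 2, 13 intact reads remained, 5.14 would have been seen, and the bound was 1.71-fold. Without 1 DKO library it was 1.81-fold to 1.93-fold. Its exact permutation p of 0.0455 did not pass after adjustment (0.0530), and 2 of the 9 intact libraries also had no read. Without either of these 2 (WT library 3 or miR-24 Tg library 1) the adjusted p was 0.0283. Mir24-2 had 1 read in DKO, in library 2, against 16 in the intact libraries (difference -2.47, exact permutation p = 0.264, adjusted 0.264), so a loss was not detectable at this depth. With the Mir3074-2 reads added, as reads plus 1, the Mir24-2 difference was -1.24 (exact permutation adjusted p = 0.118). In the limma comparison of DKO with WT alone, none of the 3 hairpin rows passed: Mir23a -5.08, Mir27a -5.87 and Mir24-2 -0.70 on the log2 scale, adjusted p = 1 each. In that comparison 0.0% of genes passed as lower, 0 of 11520, while 254 had an unadjusted p under 0.05 in either direction.

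The 3 hairpins of the miR-23b cluster lie in 1 gene. They stand at chr13:63300484-63300557 (Mir23b), chr13:63300712-63300784 (Mir27b) and chr13:63301208-63301275 (Mir24-1), on the plus strand, inside 2010111I01Rik (chr13:62964893-63326096). Of the 28 annotated host transcripts (GENCODE M21), 9 span Mir23b, all of them without an exon there. Mir27b lies in an exon of 1 transcript, and Mir24-1 is touched by exons of 4 and held wholly by 1. Reads over these hairpins can thus be counted for the host as well, and their own rows received less than 1 read in each of the 18 libraries. All 3 rows were listed at exactly 0 in the 3 DKO libraries. Of the other 15 libraries, Mir24-1 was at exactly 0 in 1, Mir27b in 2 and Mir23b in 5.

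The row that did carry reads over the miR-23b cluster was Mir3074-1, a hairpin annotated on the other strand at chr13:63301199-63301283, which holds all of Mir24-1. WT had 191.0, 112.4 and 116.3 RPKM, cluster Tg 333.6, 184.2 and 106.1, miR-27 Tg 371.3, 43.4 and 236.5, and miR-24 Tg 67.8, 57.5 and 108.4. In miR-23 Tg library 1 it had 150.7 RPKM, and in libraries 2 and 3 less than 1e-09 RPKM. All 3 DKO libraries were at exactly 0. A value above 1 RPKM was thus seen in 13 of 15 libraries with the endogenous cluster and in 0 of 3 without it. The estimates were fractions of reads, about 1 to 11 a library, and the strand used in counting is not given in the sources used here, so they cannot be assigned to a strand.

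For Mir3074-1 the exact two-sided permutation test of DKO against the other 15 libraries gave p = 0.0123 (difference -6.98 on the log2 scale, 816 assignments). This test was chosen after its values were seen and is not adjusted. In the limma model the difference from WT was -8.09 ± 1.57 with an adjusted p of 0.232, which did not pass. It passed in the fit with only DKO and WT (adjusted p = 0.000334) and had an adjusted p of 1 with the reads plus 1.

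The host transcript was highest in DKO. 2010111I01Rik had 93.9, 92.2 and 114.2 RPKM in DKO (100.1 ± 12.3, SD, n = 3) and 62.2, 47.8 and 49.0 in WT (53.0 ± 7.98). The means of the other groups lay between, with cluster Tg at 61.1, 70.6 and 79.5 RPKM, miR-24 Tg at 64.7, 68.9 and 67.9, miR-27 Tg at 71.8, 63.2 and 62.7, and miR-23 Tg at 51.0, 61.8 and 60.4. All 3 DKO libraries were above all 15 others, whose median was 62.7 and highest 79.5 RPKM. The difference was 0.67 on the log2(RPKM + 0.5) scale, and the exact two-sided permutation test gave p = 0.00123, the smallest of its 816 assignments (adjusted 0.00214 over 7 tests). The test takes the 15 libraries as interchangeable, though they came 3 to a genotype. Among them the host was also called in cluster Tg against WT (limma adjusted p = 0.0261). The permutation p therefore does not measure the spread between genotypes.

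Against WT alone the host rose 1.89-fold in DKO (log2 0.91 ± 0.122, limma adjusted p = 0.0155). It was 1 of the 2 genes called in that comparison, 0.0174% of those tested, all higher. The other was Arpc1a, a subunit of the actin-nucleating Arp2/3 complex, at 71.1 ± 3.72 against 45.1 ± 0.878 RPKM (adjusted p = 0.00071, and 0.132 in a fit of these 2 groups alone). The host's call was lost with the replicate number as a block (adjusted p = 0.0526) and in a fit of these 2 groups alone (0.673). Leaving out DKO library 1 or 3 or WT library 2 or 3 also ended it (adjusted p 0.0580 to 0.162). The comparison with all 15 other libraries kept its call when any 1 library was left out (adjusted p 0.00257 to 0.0129). This could not have failed, because each DKO library was above each of the 15 others.

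The order of the host's mean levels was DKO, cluster Tg (70.4 ± 9.24 RPKM), miR-24 Tg (67.2 ± 2.23), miR-27 Tg (65.9 ± 5.14), miR-23 Tg (57.8 ± 5.86) and WT (53.0 ± 7.98). Neighbours in this order overlapped in their libraries, apart from DKO over cluster Tg and miR-27 Tg (lowest 62.7 RPKM) over miR-23 Tg (highest 61.8). Against WT, the host rose in cluster Tg by 0.41 on the log2 scale (limma adjusted p = 0.0261), a comparison in which 24.4% of genes passed in either direction, and it was not called in a fit of these 2 groups alone (adjusted p = 0.0975) or without cluster Tg library 2 or 3 or WT library 2 or 3 (0.0625 to 0.0965). In miR-24 Tg, miR-27 Tg and miR-23 Tg its differences from WT were 0.35, 0.32 and 0.13 (adjusted p = 0.0911, 0.0654 and 0.695), where 8.98%, 28.6% and 0.356% of genes passed. These comparisons share the WT libraries. Cluster Tg did not differ past the test from miR-23 Tg, miR-24 Tg or miR-27 Tg (0.28, 0.06 and 0.09, adjusted p = 0.125, 0.772 and 0.700).

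**Figure D4:**
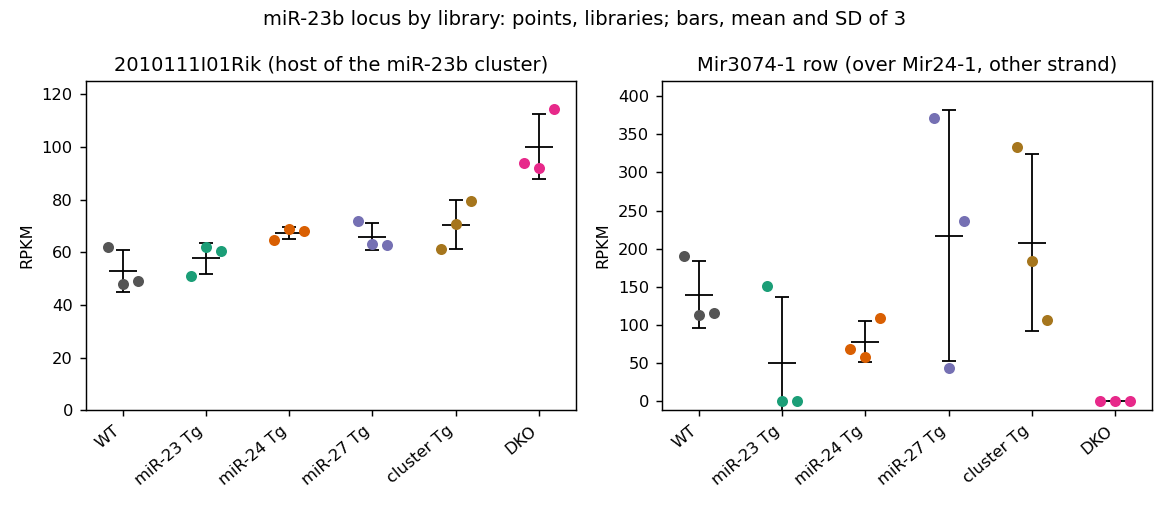
RPKM of 2010111I01Rik (left) and of the Mir3074-1 row (right) in 6 genotypes, with 1 point per library and bars for the mean and SD of 3. The DKO libraries are the highest for the host, at 92.2 RPKM or more, and are at 0 for Mir3074-1.

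Genes around the clusters were compared in the same way. Within 250 kb, 19 tested rows lie near the miR-23a cluster, microRNA rows other than the members included, and 4 near the miR-23b cluster beside the host. In DKO against WT none of the 23 passed in limma. Gm16907, a lincRNA on the minus strand 3.3 kb from Mir23b and within the host's span, had 46.6, 32.0 and 18.5 RPKM in DKO and 12.95, 11.05 and 8.19 in WT (log2 1.48 ± 0.343, adjusted p = 0.555). All 3 of its DKO values lay above the 15 others, the highest of which was 16.8 RPKM in miR-24 Tg library 2. Fancc, a Fanconi anaemia DNA repair gene that overlaps the host and the cluster on the minus strand, differed by 0.04 ± 0.0867. Reads of genes that overlap on opposite strands could not be told apart here.

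**Figure D5:**
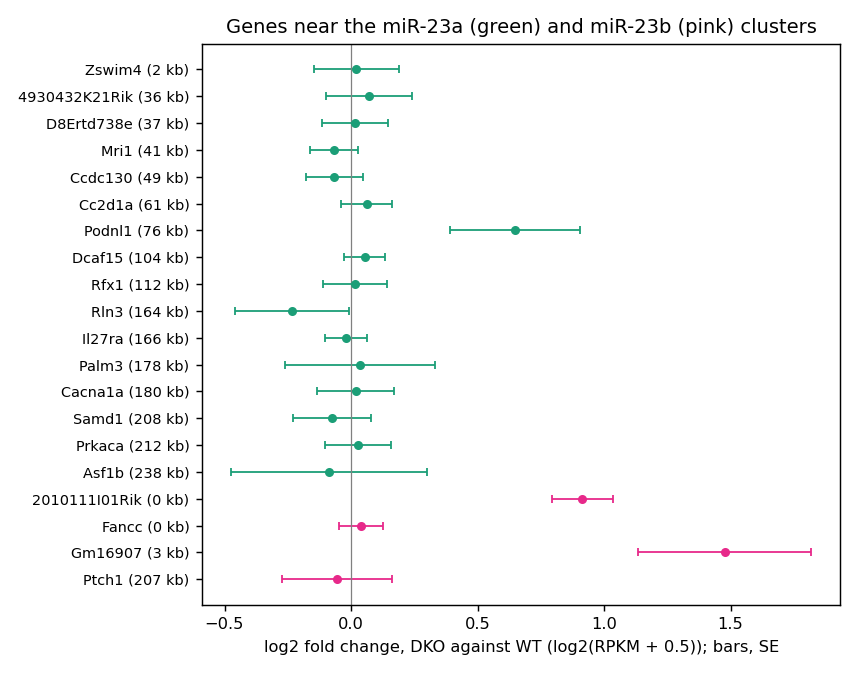
Log2 fold change of DKO against WT (points, with SE) for tested genes within 250 kb of the miR-23a cluster (green) and the miR-23b cluster (pink), with the distance to the cluster in kb and microRNA rows left out. 2010111I01Rik stands at 0.91 and Gm16907 at 1.48, while Fancc and Ptch1 lie near 0.

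Near the miR-23a cluster, 0 of the 19 rows passed in miR-23 Tg against WT, and miR-24 Tg had 2 calls, miR-27 Tg 5 and cluster Tg 3. These are 0%, 10.5%, 26.3% and 15.8%, beside 0.356%, 8.98%, 28.6% and 24.4% of all genes, so the shares were near or below the background. Podnl1, a leucine-rich repeat protein gene 76 kb away, rose from 10.6 ± 2.30 RPKM in WT to 23.1 ± 4.57 with the miR-24 transgene, 46.2 ± 5.76 with miR-27 and 35.1 ± 15.3 with the cluster (SD, n = 3, limma adjusted p = 0.0165, 0.000104 and 0.000688). The first of these calls was lost without miR-24 Tg library 1 or WT library 3, with an adjusted p of up to 0.0742. Asf1b, a histone chaperone of dividing cells, rose in miR-27 Tg and cluster Tg (1.80 and 1.18, adjusted p = 0.00349 and 0.0382). Its call in cluster Tg was lost with no filter (0.0613) and in 5 of the 6 fits that left out 1 library, all but that without WT library 3 (0.0707 to 0.160). The relaxin gene Rln3 fell by 1.40 in miR-24 Tg (adjusted p = 0.00198), and Samd1 and Dcaf15 rose by 0.61 and 0.31 in miR-27 Tg (0.00969 and 0.0103), Dcaf15 not in a fit of these 2 groups alone or without WT library 2 (up to 0.0697). 4930432K21Rik fell by 0.66 with the miR-27 transgene and by 0.61 with the cluster (0.01001 and 0.0179, the second lost without library 1 of cluster Tg or of WT, at up to 0.0823). The closest tested protein-coding gene, Zswim4, 1.8 kb away, had 7.27 ± 0.942 RPKM in WT and 7.02 to 8.04 on average in the other groups. The median difference of the 19 rows from WT was between -0.03 and 0.08 in the 5 comparisons. At the miR-23b cluster, Fancc fell by 0.30 in miR-24 Tg (adjusted p = 0.0440), 1 of 4 rows. That call was lost with no filter (0.0617), in a fit of these 2 groups alone (0.0929) and without any 1 of the 6 libraries (0.0685 to 0.139). No other neighbour passed in a comparison with WT.

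The genes whose levels over the 18 libraries ran most like a member's were found by Pearson's r of log2(RPKM + 0.5). It is given as a description, since the libraries share genotypes. Mir23a ran closest to Tmed9 (0.92), a cargo receptor of the secretory pathway, and opposite to Etnk1 (-0.91), an ethanolamine kinase. Etnk1 had 39.3 ± 2.55 RPKM in miR-23 Tg, 34.4 ± 5.51 in cluster Tg, 58.8 ± 6.23 in WT and 69.8 ± 7.83 in DKO. Mir27a ran closest to Cebpa (0.93), a myeloid transcription factor, and Axl (0.93), a receptor kinase, and opposite to Ppapdc2 (-0.91). Cebpa had 9.95 ± 1.17 RPKM in miR-27 Tg, 8.85 ± 0.529 in cluster Tg and 2.67 ± 0.704 in WT. The summed myeloid markers were 26.3 to 86.6 RPKM in miR-27 Tg, 22.998 to 33.9 in cluster Tg and 15.1 to 19.0 in WT, and their part in this likeness was not tested.

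Mir24-2 ran closest to Xcl1 (0.89), a chemokine, and opposite to Sptlc2 (-0.92), a subunit of serine palmitoyltransferase. For Sptlc2, miR-24 Tg had 11.9 ± 1.04 RPKM and cluster Tg 12.6 ± 0.0631, beside 17.4 to 19.8 on average in the other groups. The host gene had weaker partners, C2 (0.73) and Gm16907 (0.70) at the top and Ero1lb (-0.73) at the bottom. The r of the host with Mir23a, Mir27a and Mir24-2 was -0.40, -0.30 and -0.06. Mir23a and Mir27a had 0.63 with each other, and each had 0.42 with Mir24-2.

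Genes of the microRNA pathway and literature targets were taken from lists and described by their counts. Of 23 tested genes of processing and silencing, 0 passed in DKO or in miR-23 Tg against WT. In miR-24 Tg 1 rose, in miR-27 Tg 3 rose and 1 fell, and in cluster Tg 4 rose and 1 fell, with median differences of 0.07, 0.12 and 0.02 beside 0.01, 0.01 and 0.02 over all genes. The called shares were 4.35%, 17.4% and 21.7%, below the 8.98%, 28.6% and 24.4% of all genes. Dgcr8, the RNA-binding partner of Drosha, rose in the 3 groups (0.43, 0.60 and 0.51, limma adjusted p = 0.00161, 4.84e-05 and 0.000199). Tarbp2, a partner of Dicer, rose in miR-27 Tg and cluster Tg (0.53 and 0.46, adjusted p = 0.00379 and 0.00972). The miR-23 literature targets (16 tested) held 0 calls in miR-23 Tg, with a median of -0.09, where 0.2% of all genes passed as lower. Of the miR-24 targets (17 tested) 3 fell and 0 rose in miR-24 Tg, where 4.38% of all genes passed as lower, among them Nlk (-0.48, adjusted p = 0.00175), a kinase, and Myc (-0.43, 0.0493). The Myc call was lost without any 1 of the 6 libraries (0.0556 to 0.174), with no filter (0.0708), in a fit of these 2 groups alone (0.0683) and with the replicate number as a block (0.0635). In cluster Tg, which also overexpresses miR-24, 4 of the 17 rose and 2 fell (35.3%, beside 24.4% of all genes), with a median of 0.12. In miR-27 Tg, 8 of the 17 rose and 2 fell (58.8%, beside 28.6% of all genes), with a median of 0.29. Of the miR-27 targets (16 tested) 3 fell and 2 rose in miR-27 Tg, where 12.7% of all genes passed as lower and 15.9% as higher. The called share was 31.25%, beside 28.6% of all genes. The called targets included the transcription factors Zbtb10 (-2.02, 0.000275) and Foxo1 (-0.33, 0.0180), both lower, and Bak1 (0.61, 0.00394), which was higher. The Foxo1 call was lost without miR-27 Tg library 3 or WT library 1 (up to 0.0668). Neither Foxo1 nor Myc was lower under 1 single-member transgene only. Foxo1 also fell in miR-24 Tg (-0.42, limma adjusted p = 0.0147). That call was lost in a fit of miR-24 Tg and WT alone (0.0502) and without miR-24 Tg library 3 or WT library 1 (0.0572 and 0.0614). Myc also fell in miR-27 Tg (-0.65, limma adjusted p = 0.00187). In cluster Tg, 0 of the 16 miR-27 targets rose and 4 fell, and of the 16 miR-23 targets 1 rose and 3 fell, 25% of each list beside 24.4% of all genes.

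Among all 1073 microRNA rows of the table, Mir27a had the highest mean over the 18 libraries (14676 RPKM), Mir23a the third (8570) and Mir24-2 the sixth (3395). In WT the 3 rows were far below that, at 163.9, 72.2 and 16.8 RPKM on average. Of the other rows 274 were tested, and against WT 0 were called in miR-23 Tg and DKO, while miR-24 Tg had 5 calls, miR-27 Tg 6 and cluster Tg 9. These are 1.82%, 2.19% and 3.28% of the 274, below the 8.98%, 28.6% and 24.4% of all genes. Mir29a rose in both miR-27 Tg (149.5 ± 64.0 RPKM) and cluster Tg (188.5 ± 105.3) and was listed at 0 in all 3 WT libraries (limma adjusted p = 0.000288 and 0.000316). Mir191 was likewise listed at 0 in WT and rose to 76.2 ± 16.3 RPKM with the miR-27 transgene (adjusted p = 0.00315). In cluster Tg it was called too (adjusted p = 0.0146), but the libraries overlapped those of WT, and the call was lost without library 1 or 2 (0.0844 and 0.0644) and in a fit of these 2 groups alone (0.138). On the Mir23b row (74 nt), 1 read in miR-27 Tg was worth 76.2 RPKM on average. Values of this size on a short row can thus be about 1 read a library. The reads behind Mir29a and Mir191 are not given here, and the pseudocount of 0.5 RPKM is far below 1 read.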

How the data were processed

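The authors deposited 1 table of RPKM values for 18 libraries of sorted Treg cells. The submitters' processing notes name STAR 2.2.0c, HOMER and mm10 (GRCm38), with no role; the tool that made the RPKM values is not given in the sources used here. Of 23953 rows, 4 with repeated symbols were left out. The 11520 genes that reached 1 RPKM in 3 or more libraries were tested with limma 3.58.1 (R 4.3.3, mean-variance trend, all 18 libraries, two-sided) on log2(RPKM + 0.5), in 8 comparisons, each against a Benjamini-Hochberg threshold of 0.05. Fold changes are on that scale, which understates changes of low mRNAs. On the hairpin rows the pseudocount is far below 1 read, and the called rises over WT were larger on that scale than with the reads plus 1. Single rows were compared by exact permutation of libraries with scipy 1.17.1, which takes libraries of different genotypes as interchangeable. The members, lists and named-gene rule (members, genes within 250 kb, the 5 highest and 3 lowest correlations per member, up to 4 called genes per list and 6 called microRNA rows) were chosen with earlier results of these data known.

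Whole reads were recovered after the values were seen. The fragment setting was searched on WT library 1, and the smallest mapped total within 0.04 of the best share of whole values was taken. On 146 to 210 long single-transcript rows per library near 1 read, not used in the search, 69.3% to 78.3% lay within 5% of it. Fold bounds use a floor of 3 reads over DKO and take the intact reads as exact, so they leave out the counting error of the intact side. Reads carry no molecular identifiers, so counting ranges cover counting error only. Locations come from GENCODE M21 and sequences from RefSeq. The methods were tested on simulated data. Alternatives were pseudocounts of 0.1 and 1, median-of-ratios scaling, all rows unfiltered, 2 groups per fit, the replicate number as a block, raw differences, leaving out each library and, added after seeing the data, the reads plus 1 and Mir24-2 with its antisense row.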

Additional observations from a re-analysis of the deposited data

How the results depend on the processing

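The rises of the 3 hairpins in transgenic against intact groups kept their calls under each alternative run. These alternatives could not have ended them, because the libraries did not overlap and the exact permutation p stayed at its smallest. Counts of called genes moved when only the 2 compared groups were fitted: against WT, 148 for miR-23 Tg, 555 for miR-24 Tg and 1789 for cluster Tg, and 1177, 11 and 5 in cluster Tg against miR-23 Tg, miR-24 Tg and miR-27 Tg, where the model over all groups gave 41, 1034, 2806, 2166, 1330 and 789. A pseudocount of 1 gave 26 in miR-23 Tg. Leaving out 1 library gave 2 to 5, 550 to 847 and 1467 to 2892 against WT (miR-23 Tg, miR-24 Tg, cluster Tg), 1 to 2 in DKO, and 1077 to 2190, 460 to 1941 and 268 to 1219 for cluster Tg against miR-23 Tg, miR-24 Tg and miR-27 Tg. The cause was not tested.

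Mir23a in miR-23 Tg stayed positive but was not called with a pseudocount of 0.1 (11.73), no filter (10.95), median-of-ratios scaling (10.94) or 2 groups in the fit (10.95), and ranged from 8.41 to 12.55 without 1 library. Mir27a in cluster Tg was not called with 2 groups in the fit (9.28), nor was the host in cluster Tg (0.41; 0.32 to 0.53 without 1 library) or DKO (0.91; 0.82 to 1.03). In DKO against intact groups, Mir27a was not called as a raw difference (-218.3 RPKM) and ran from -8.52 to -7.22 without 1 library, and Mir23a from -7.33 to -6.00. Signs turned without 1 library for differences that were not called: Mir27a in miR-23 Tg (-0.61 to 4.11) and miR-24 Tg (-0.18 to 4.54), Mir23a in miR-24 Tg (-1.61 to 3.94), Mir24-2 in DKO (-2.22 to 1.53), Mir3074-1 in miR-27 Tg (-0.42 to 1.12), and the host in cluster Tg against miR-24 Tg (-0.032 to 0.16) and miR-27 Tg (-0.0020 to 0.19).

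The labels do not say whether libraries with the same replicate number are paired, and the values did not settle it. Over 45 pairs the correlation of deviations had a median of 0.004 (-0.167 to 0.188), with 6 pairs above 0.1. Of the 18 libraries, 9 correlated best with their own number. With the replicate block 76 genes were called in miR-23 Tg and 1 in DKO, and the host in DKO stood at 0.91 without a call. Depth limits the endogenous rows, where a library held 0 to 19 reads.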
